A study of Mus musculus with 7 samples.

Results

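After 8 h with anti-IgM, an antibody that binds the antigen receptor of B cells, C57BL/6 mouse B cells had higher mRNA levels than unstimulated cells for many of the genes that build ribosomes, charge transfer RNA, fold and degrade proteins, and make sterols, serine-derived carbon units and nucleotides. They had lower levels of the immediate early genes Fos and Jun and of the KLF factors that mark resting lymphocytes. Levels of MHC class II genes, and of several genes whose proteins carry the receptor signal itself, were lower as well. Macrophage markers were also lower, and the part of macrophages in the class II values was not tested. The comparison was between 2 sequencing libraries, 1 of B cells with no treatment at 0 h and 1 of B cells treated with anti-IgM for 8 h, of 7 libraries in the series. The remaining 5 held B cells given BAFF, or both agents, for 8 h, and B cells given either agent alone, or both, for 30 h. All 7 carry the same label for background and cell type, C57BL/6 and B cells; the organ, the way the cells were purified, and the age and number of mice are not given in the sources used here. Each condition was 1 library and none was cultured without a stimulus, so stimulus and time in culture cannot be told apart, no p-value can be given, and the error of each value below covers the counting of fragments only.

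The antigen receptor of a B cell is a membrane immunoglobulin with the signalling chains CD79A and CD79B. When anti-IgM crosslinks it, the kinases LYN and SYK start a cascade through BTK, PLCγ2 and the RASGRP exchange factors to calcium, RAS and ERK, and through BCL10 and MALT1 to NF-κB, while PI3 kinase signalling keeps the FOXO factors out of the nucleus. MYC and NF-κB are the best known downstream factors in the growth of the activated cell before it divides.

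The deposited value of a gene is FPKM, fragments scaled by transcript length and by the number of mapped fragments, so levels are comparable between genes. It was summed over the transcripts of at least 300 bases that Cufflinks assembled for the gene in that library. Genes assembled in both libraries, with at least 1 FPKM in one of them, entered the comparison, and 9836 of the 11202 genes assembled in either library did; 11641 genes were assembled in any of the 7. A gene was counted as higher or lower when log2(FPKM + 1) differed by at least 1 (2-fold, after adding 1) and the counting intervals, 2 SDs either way, did not overlap. On that rule 1060 genes were higher with anti-IgM, 10.8% of those compared, and 1042 were lower, 10.6% (21.4% either way). These shares are the background for every count of a gene list below. All differences are anti-IgM minus unstimulated on the log2(FPKM + 1) scale, which understates the change of low genes. The median difference over all compared genes was 0.05. With the libraries rescaled to the same upper quartile, a shift of -0.14, 820 genes were higher and 1249 lower, so 39.6% of the counted genes were higher in place of 50.4%. The cells were sequenced to 21.89 M mapped fragments (unstimulated) and 28.58 M (anti-IgM), as calculated back from the deposited intervals.

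Because each library was assembled on its own, a gene can differ through how its transcripts were put together. A second value was therefore calculated from the same files: the reads of all assembled pieces that cover a gene's exons, regardless of strand, per exon length. A difference is called held below where this value also differed by at least 1 the same way. Of the genes counted higher 774 held (7.87% of the genes compared), and of those counted lower 600 held (6.1%). The second value rests on the same deposited FPKM and intervals, but also takes in pieces under 300 bases and of either strand. A difference can thus fail to hold through such pieces as well as through the assembly. It is no separate evidence.

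**Figure D1:**
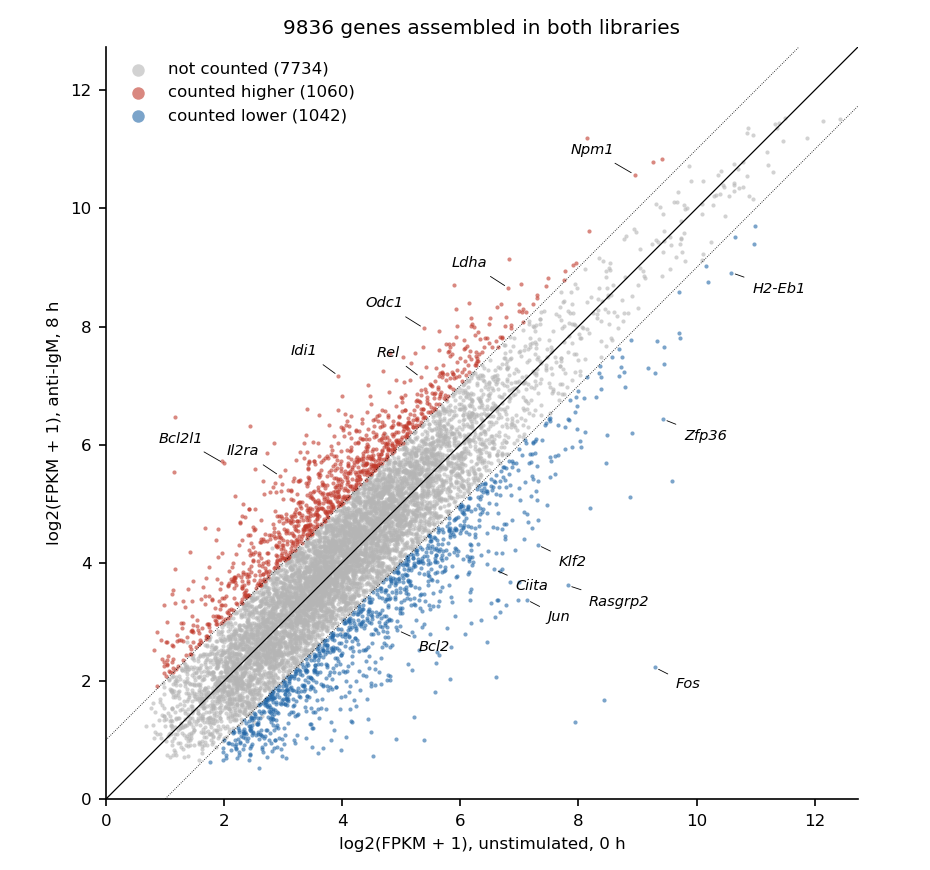
Each point is 1 of 9836 genes, with log2(FPKM + 1) of the unstimulated library on the x axis and of the anti-IgM 8 h library on the y axis; the dotted lines mark a difference of 1 either way. The 1060 genes counted higher (red) and the 1042 counted lower (blue) are nearly equal in number, while 181 genes were lower by 2 or more and 129 were higher by 2 or more.

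The promoters of 5 genes that the results turn on are shown first, because most genes of their lists differed in one direction and each carries one of the short motifs that were searched. Each sequence is the 250 bases before the RefSeq transcription start (build GRCm38.p6, 5′ to 3′ on the gene's strand), with the searched motif in capitals. Nop2, a ribosomal RNA methyltransferase (16.3 FPKM unstimulated, 78.5 FPKM with anti-IgM), lies on chromosome 6 and carries CACGTG, the E-box that MYC and MAX bind. Iars, the isoleucine tRNA synthetase on chromosome 13, carries the same letters. Hmgcs1, the cytosolic HMG-CoA synthase of the sterol pathway, also on chromosome 13, carries TCACNCCAC, a sterol response element. Psmd12, a subunit of the proteasome lid on chromosome 11, carries ACTTCCG, the core of an ETS site, and H2-Eb1, a class II beta chain on chromosome 17, carries CCAAT, bound by NF-Y, at 2 places.
Nop2 (chr6:125131633-125131882, plus strand): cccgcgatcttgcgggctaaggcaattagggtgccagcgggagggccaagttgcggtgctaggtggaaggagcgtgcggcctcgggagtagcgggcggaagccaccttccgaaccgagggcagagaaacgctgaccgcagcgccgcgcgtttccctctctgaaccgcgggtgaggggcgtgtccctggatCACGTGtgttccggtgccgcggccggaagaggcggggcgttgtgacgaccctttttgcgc
Iars (chr13:49681880-49682129, plus strand): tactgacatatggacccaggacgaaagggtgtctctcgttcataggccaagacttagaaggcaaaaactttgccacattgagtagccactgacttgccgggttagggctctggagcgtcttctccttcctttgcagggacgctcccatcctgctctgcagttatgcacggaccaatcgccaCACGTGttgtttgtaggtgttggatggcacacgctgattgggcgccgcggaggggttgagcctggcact
Hmgcs1 (chr13:119690101-119690350, plus strand): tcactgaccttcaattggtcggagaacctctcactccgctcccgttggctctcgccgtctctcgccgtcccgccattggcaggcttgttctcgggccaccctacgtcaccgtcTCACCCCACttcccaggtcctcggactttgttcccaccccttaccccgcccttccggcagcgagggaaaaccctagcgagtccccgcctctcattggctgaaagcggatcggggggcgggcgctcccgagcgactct
Psmd12 (chr11:107479278-107479527, plus strand): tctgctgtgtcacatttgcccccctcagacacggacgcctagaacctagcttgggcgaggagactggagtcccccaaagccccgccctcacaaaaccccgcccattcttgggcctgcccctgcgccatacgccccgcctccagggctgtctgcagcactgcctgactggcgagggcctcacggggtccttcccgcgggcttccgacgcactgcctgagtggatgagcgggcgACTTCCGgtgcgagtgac
H2-Eb1 (chr17:34305617-34305866, plus strand): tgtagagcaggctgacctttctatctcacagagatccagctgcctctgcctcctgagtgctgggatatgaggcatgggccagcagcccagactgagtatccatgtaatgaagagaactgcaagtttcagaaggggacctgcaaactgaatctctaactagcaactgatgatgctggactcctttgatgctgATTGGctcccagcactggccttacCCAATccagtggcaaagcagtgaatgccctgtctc

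The letters were counted on both strands in 300-base windows, 250 before and 50 after the start, for 7967 of the 9836 genes compared, with the window nearest the assembled 5′ end. CACGTG was found in 16.9% of the windows of genes counted higher, 8.31% of those counted lower, 11% of all genes compared and 7.15% of all 32851 RefSeq windows. Among the lists it was in 7 of 33 windows of ribosome biogenesis genes, 8 of 29 of translation initiation factors and 4 of 7 of MYC network genes, and also in 8 of 26 windows of lysosomal genes, a list with more genes counted lower than higher. It was in only 1 of 12 windows of serine and one-carbon genes and 1 of 25 of proteasome genes, lists with most genes counted higher. ACTTCCG was found in 16.8% of the windows of genes counted higher, 8.31% of those counted lower and 16.1% of all genes compared. It was in 11 of 25 windows of proteasome genes and 12 of 33 of ribosome biogenesis genes. Lists with a median near 0 held it as well. It was in 17 of 55 windows of cytosolic ribosomal proteins (median -0.09) and 9 of 28 of replication genes (median -0.02). TCACNCCAC was in 1.15% of the windows of higher genes and 1.09% of all genes compared, so its share in higher genes was near the background. Of 23 sterol and fatty acid windows 1 held it, that of Hmgcs1 itself. CCAAT was in 37.7% of the windows of higher genes, 38.6% of lower and 39.3% of all genes compared, and in 9 of 10 windows of class II genes. It was also common in lists that were not lower: 17 of 23 windows of sterol and fatty acid genes, 9 of 12 of serine and one-carbon genes and 21 of 28 of replication genes. AP-1 (TGANTCA) was in 3.56% of higher, 4.87% of lower and 4.34% of all, and the cyclic AMP element TGACGTCA in 4.48%, 2.85% and 3.58%. The κB motif, with 1 free base at its centre, was in 3 of 870 windows of higher genes, 7 of 842 of lower genes and 30 of 7967 of all genes compared (0.377%). Among the lists it was in 3 of 9 windows of cytokine and chemokine genes and 3 of 20 of the NF-κB genes. A match is a description of these letters only, and no binding was measured.

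The first step of the receptor signal was represented by 36 proximal signalling genes, of which 12 were counted lower and 1 higher, with a median difference of -0.62; all 13 held. Rasgrp2, an exchange factor that activates RAP1, was at 225 FPKM at 0 h and 11.3 after anti-IgM, a difference of -4.20 (counting interval -4.39 to -4.02). Rasgrp3 and Rasgrp1, which activate RAS downstream of diacylglycerol, went from 80.96 to 16.5 FPKM and from 40.9 to 10.1 FPKM. The 3 RASGRP genes were thus all lower, Rasgrp2 by the most. Bank1, a B cell adaptor that links LYN to calcium release, was at 176 and 30.4 FPKM. The kinases Syk (202 and 79.96 FPKM), Lyn (105 and 42.96) and Prkcb (127 and 37.4) were counted lower as well. Their partners Btk (91.4 and 60.3 FPKM), Blnk (92.3 and 65.6), Plcg2 (88.3 and 56.9) and Malt1 (59.5 and 32.2) were lower by less than the 2-fold rule, and Bcl10 was at 47.6 and 52.4 FPKM. Orai1, the pore of the store-operated calcium channel, was the only gene of the list counted higher (9.91 and 26.9 FPKM, 1.35), while Stim1, the calcium sensor that opens it, was counted lower (21.8 and 9.47 FPKM, -1.12).

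Coreceptors and inhibitory receptors set the threshold of the signal. Of 18 such genes 8 were counted lower and none higher (median -0.90, 17 of 18 differences below 0), and 7 of the 8 held. Cd22, a sialic acid receptor that recruits the phosphatase SHP-1, stood at 353 FPKM without stimulus and 50.8 with it (-2.77); it lay in a transcript joined with the neighbouring gene Ffar1, and the difference held over its exons (-2.75). Siglecg, its relative, went from 276 to 73.6 FPKM. The tetraspanin Cd37 went from 631 to 147 FPKM, and Ms4a1, which encodes CD20, from 442 to 125 FPKM. Cd72 was the single member above 0, at 233 and 385 FPKM (0.72).

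**Figure D2:**
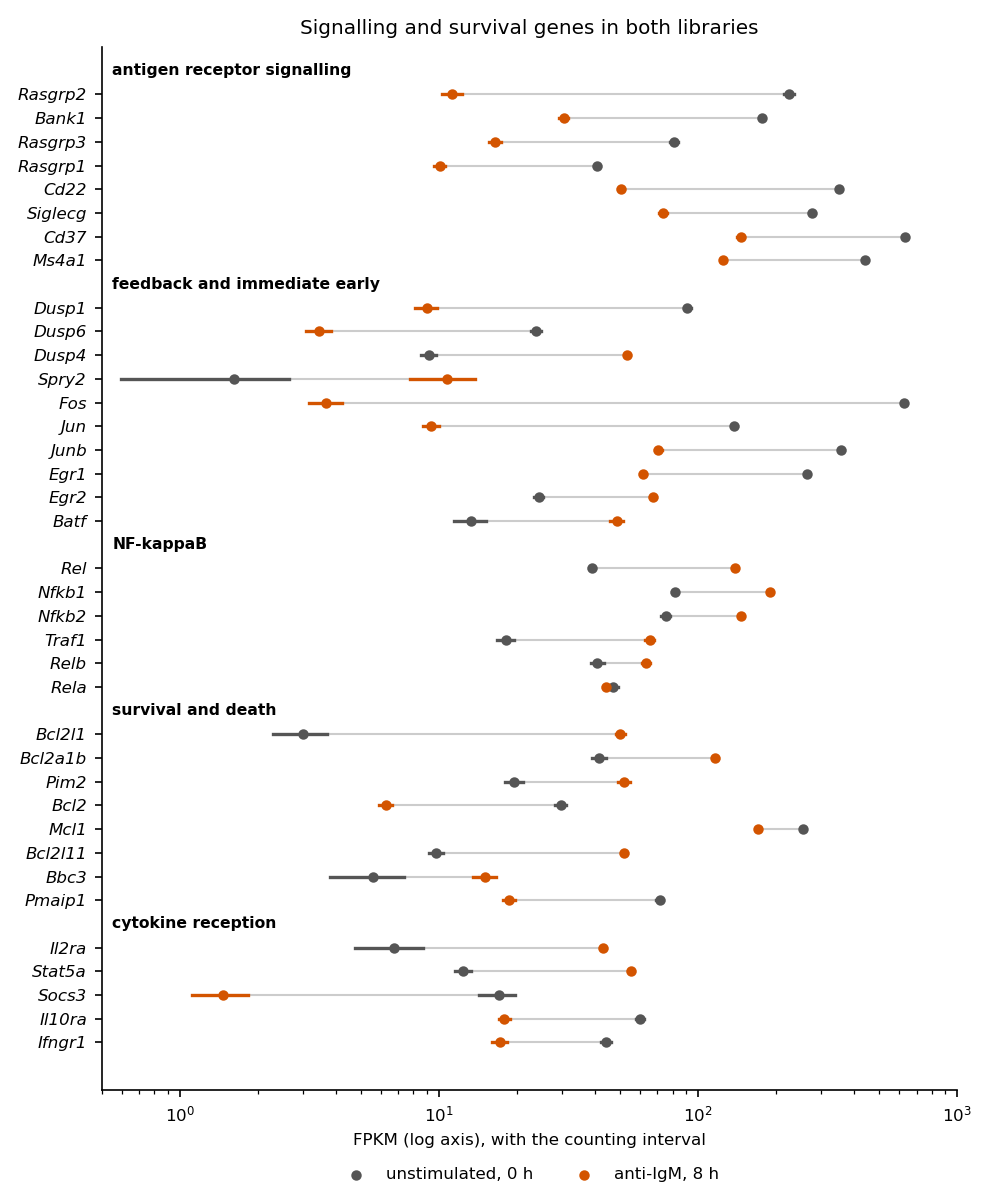
FPKM (x axis, log scale) of 37 signalling and survival genes in the unstimulated library (grey) and after 8 h of anti-IgM (orange), with thick bars for the counting interval of each value; each point is 1 library. The 8 genes of antigen receptor signalling are all lower with anti-IgM, and the widest interval on this axis belongs to Spry2 in the unstimulated library.

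Negative feedback genes of the ERK pathway split by member. Of 11 MAP kinase phosphatase and Sprouty genes 2 were counted higher and 3 lower, and all 5 held. Dusp1, a nuclear phosphatase for p38, JNK and ERK, measured 91.2 FPKM at 0 h and 8.999 after anti-IgM (-3.21). Dusp6, the cytoplasmic ERK phosphatase, was at 23.8 and 3.45 FPKM (-2.48). Dusp4, a nuclear ERK phosphatase, was at 9.19 and 53.5 FPKM (2.42), and Spry2, an inhibitor of RAS activation, at 1.62 and 10.8 FPKM (2.17). Spry1 was assembled with anti-IgM only (1.95 FPKM). Dusp1 was low in all 6 stimulated libraries, between 4.25 FPKM (both agents, 30 h) and 12.2 FPKM (BAFF, 8 h). Dusp4, in contrast, was at 18.5 and 9.42 FPKM with BAFF alone at 8 and 30 h, and at 50.6, 42.8 and 38.6 FPKM in the other 3 libraries that received anti-IgM.

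Immediate early transcription factors were high in the unstimulated library. Fos was at 627 FPKM there and 3.69 FPKM with anti-IgM, a difference of -7.06 (-7.26 to -6.89). It was between 1.28 and 7.22 FPKM in the other 5 libraries, so only the 0 h library stood above 10 FPKM. Of the 20 genes of this list 10 were counted lower, all of which held, and 3 higher. Jun went from 138 to 9.38 FPKM, Junb from 359 to 70.6, Fosb from 86.1 to 5.33 and Atf3 from 18.6 to 2.58. Egr1, an ERK-induced zinc finger factor, went from 264 to 61.6 FPKM, and was at 14.7 FPKM with BAFF alone at 8 h. Its relative Egr2 was instead higher (24.4 and 67.2 FPKM, 1.43, not held at 0.91 over exons), and Egr3 was at 51.4 and 65.3 FPKM. Batf, an AP-1 factor of activated lymphocytes, was at 13.4 and 48.6 FPKM (1.79), and Nr4a3, an orphan receptor induced by antigen receptors, at 4.36 and 29.1 FPKM (2.49). Its family member Nr4a1 was at 352 FPKM unstimulated, 204 with anti-IgM and 29.9 with BAFF at 8 h, and did not pass the 2-fold rule. The ARE-binding decay factor Zfp36 went from 690.5 to 85.4 FPKM, the small GTPase Rhob from 108 to 8.77, the inducible chaperones Hspa1a from 21.5 to 1.19 and Hspa1b from 25.7 to 5.07, and Ppp1r15a, a stress-induced phosphatase subunit, from 154 to 36.3. Hspa1a and Hspa1b are near-identical copies, so the division of reads between them is uncertain. Across the 6 stimulated libraries the highest value of Jun was 12.3 FPKM (BAFF, 8 h), of Rhob 10.9 FPKM and of Atf3 3.45 FPKM (both agents, 8 h), so the unstimulated library stood above all of them.

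RGS genes encode the proteins that switch off G protein signals from chemokine receptors. Of 8 compared, 5 were counted lower and none higher, with a median of -1.10. Rgs14 was at 39.7 FPKM at 0 h and 6.57 after anti-IgM, Rgs2 at 158 and 41, Rgs1 at 88.7 and 31.1, and Rgs18 at 7.38 and 2.65 FPKM; these 4 held. Rgs3 was counted lower without holding (15.4 and 7.19 FPKM). Of 15 homing and egress genes 7 were counted lower and 1 higher, and all 8 held. Cxcr4, the receptor for CXCL12, was at 479 and 72.3 FPKM (-2.71), S1pr1, the egress receptor for sphingosine 1-phosphate, at 77.6 and 19.02, and Itgb7 (integrin β7) at 55.5 and 3.09 FPKM. Ccr7, which guides cells to the T zone, was the 1 counted higher, at 127 and 332 FPKM (1.38); with BAFF alone at 8 h it was at 313 FPKM. Cxcr5, the receptor for the follicle, was at 71 and 71.9 FPKM.

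Of 24 NF-κB subunits, inhibitors and adaptors 5 were counted higher, 4 of which held, and 1 lower, with a median of 0.32. Rel, the c-Rel subunit, stood at 39.2 FPKM without stimulus and 140 with it (1.81), and Nfkb1, which encodes p105 and p50, at 81.6 and 189.6 FPKM (1.21). Nfkb2, which encodes p100, was at 75.3 and 147 FPKM (0.96), just under the 2-fold rule, and was at 184 FPKM with BAFF and 198 FPKM with both agents at 8 h. Relb was at 41.1 and 63.2 FPKM and Rela at 47.3 and 44.4 FPKM (-0.09). Among the inhibitors and adaptors, Nfkbib (20.2 and 46.6 FPKM, not held), Tnfaip3, which encodes the deubiquitinase A20 (26.2 and 54.3), and Traf1 (18.2 and 65.3) were counted higher, and Nfkbia was at 112 and 158 FPKM. Cyld, a deubiquitinase that limits the pathway, was counted lower (42.8 and 11.9 FPKM) but did not hold (-0.79 over exons). Map3k14, the kinase NIK of the BAFF pathway, was at 22.3 and 15.2 FPKM (-0.52).

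BCL2 family genes decide whether a stimulated B cell survives. Bcl2l1, which encodes the survival protein BCL-XL, measured 3.005 FPKM at 0 h and 50.3 after anti-IgM, a 16.8-fold ratio of FPKM and a difference of 3.68 (3.39 to 4.02). It was at 13.9 FPKM with BAFF and 50.7 with both agents at 8 h. Bcl2 itself went the other way, from 29.6 to 6.26 FPKM (-2.08). Bcl2a1b, of the A1 family whose copies are near-identical and therefore uncertain, was at 41.6 and 117 FPKM, the kinase gene Pim2 at 19.5 and 52.1, and Mcl1 at 254 and 171 FPKM, below the 2-fold rule. Of the killers, Bcl2l11, which encodes BIM, was at 9.81 and 52 FPKM (2.29) and Bbc3 (PUMA) at 5.58 and 15.1, both counted higher, and Pmaip1 (NOXA) was at 71.3 and 18.8 FPKM (-1.87), counted lower. By count, 3 of 8 pro-survival genes were higher and 1 lower, and 2 of 8 pro-apoptotic genes were higher and 1 lower, all held. The lower share, 12.5% in each list, was near the 10.6% of all genes compared. Of 17 p53 and target genes 4 were counted higher and 2 lower, all held. Among the higher, Cdkn1a, which encodes p21, was at 5.34 and 14.9 FPKM and Tnfrsf10b, a death receptor, at 0.967 and 8.70. Aen was at 7.02 FPKM (counting interval 0.526 to 13.5) and 24.4 FPKM. The 2 lower were Pmaip1 and Gadd45a (75.1 and 22.9 FPKM, -1.67).

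The genes of resting lymphocytes were lower. Of 15 KLF and quiescence factors 11 were counted lower, all of which held, and none higher (median -1.09). Klf2, which keeps lymphocytes quiescent and drives S1pr1, was at 158 FPKM at 0 h and 18.8 after anti-IgM; BAFF alone at 8 h gave 58.02 FPKM. Klf4 went from 36.05 to 1.61 FPKM, Klf6 from 159 to 25.4, and Tsc22d3 (GILZ) from 293 to 29.4 FPKM (-3.27). The antiproliferative genes Btg1 (381 and 179 FPKM) and Btg2 (174 and 81.9) were lower by about the 2-fold limit. Of 16 FOXO factors and targets 11 were counted lower and none higher, 10 of them held (median -1.23). Foxo1 was at 63.4 and 30.1 FPKM, and its targets Txnip, a brake on glucose uptake, at 193 and 55.2, Fbxo32 at 15.6 and 3.42, and Ccng2 at 46.6 and 16.02 FPKM. Klf2 stands in both lists, and Klf6 is counted in the immediate early list as well as in that of the KLF factors. Klf4 and Klf6, like Fos and Jun, were highest in the 0 h library. In the other 5 libraries Klf4 was between 1.74 and 3.16 FPKM and Klf6 between 17.15 and 36.5 FPKM. In the CDK inhibitor list Cdkn1b (p27) went from 65.2 to 27.6 FPKM and Cdkn2d (p19) from 27.1 to 3.22.

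B lineage factors shifted less. Of 25 compared, 6 were counted lower and none higher, with a median of -0.52. Ets1, which holds back plasma cell differentiation, was at 218 and 59.97 FPKM (-1.85), Bcl11a at 64.8 and 15.8 and Lyl1 at 67.9 and 16.2 FPKM. Pax5, the factor of B cell identity, was at 100.5 and 50.8 FPKM (-0.97) and Ebf1 at 61.3 and 36.8 (-0.72), both within the 2-fold rule. Irf4, which rises with receptor signal strength, was at 89.8 and 171 FPKM (0.93), and Prdm1 and Xbp1, factors of plasma cells, were at 2.51 and 1.45 and at 29.3 and 34.6 FPKM. In the Notch2 list Hes1, a Notch target, was lower (71.8 and 6.86 FPKM, -3.21), and Dtx4 (1.69 and 17.2 FPKM) and the DNA-binding factor Rbpj (11.9 and 32.9) were higher; the 3 were all held and the other 9 were not counted.

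MHC class II had the lowest median of the gene group lists drawn below, -1.29, with 9 of 14 genes counted lower and none higher. Ciita, the master coactivator of class II transcription, stood at 94.5 FPKM without stimulus and 13.8 with it (-2.69). The chains followed unevenly: H2-Eb1 was at 1539 and 481 FPKM, H2-Aa at 334 and 122, and H2-Ab1 at 243 and 264 FPKM (0.12). The editors of peptide loading H2-DMa, H2-Oa and H2-Ob went from 150.1 to 41.9, from 107 to 21.01 and from 201 to 55.7 FPKM. H2-DMb2 was assembled in the unstimulated library only (463 FPKM) and was at 229.6 FPKM with BAFF at 8 h; reads over its exons, next to those of H2-DMb1, were 321 unstimulated and 24.6 with anti-IgM. Cd74, the invariant chain, was at 4505 and 2849 FPKM (-0.66). Ciita was at 35.8 and 65 FPKM with BAFF alone at 8 and 30 h, and at 15.6 FPKM with anti-IgM at 30 h.

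Class II is also carried by macrophages and dendritic cells, and macrophage markers differed between the libraries. Of 9 macrophage and monocyte markers compared, 6 were counted lower with anti-IgM and none higher, all 6 held, and their summed level was 376.6 FPKM unstimulated and 101 FPKM with anti-IgM. Csf1r, the receptor that defines the lineage, was at 29.2 and 1.02 FPKM, and the red pulp genes Vcam1, Slc40a1 and Hmox1 at 48.6 and 4.44, 46.6 and 2.51, and 95.2 and 7.46 FPKM. A further 9 were assembled in the unstimulated library only: Lyz1, C1qa, C1qb, C1qc, Mrc1, Marco, Fcgr1, Itgam and Cd163, with C1qa the highest at 40.3 FPKM. Reads over the exons of C1qa, C1qb and C1qc were 0 with anti-IgM. Mpeg1, which B cells also express, was at 34.8 and 33.5 FPKM. Fewer cells of a type and less RNA per cell cannot be told apart in bulk RNA, and the part of macrophages in the class II, lysosomal and iron gene values was not tested. Ciita was lower by 6.84-fold in FPKM and Csf1r by 28.6-fold. B cell markers were lower as well, 4 of 9 counted (Ms4a1, Cd22, Cr2 and Fcer2a), summing to 2385.4 and 1110.3 FPKM. Of 3 T cell markers compared, 2 were counted higher and held, with a median of 1.06: Lck, also expressed in B cells, was at 16.5 and 45.8 FPKM, and Il7r, the IL-7 receptor, at 1.03 and 3.24. The T cell markers Cd4, Cd8a and Zap70 were assembled in the unstimulated library only, at 4.62, 3.15 and 1.26 FPKM. The adult haemoglobin gene Beta-s was assembled at 218 FPKM in the unstimulated library and not with anti-IgM. Of 6 dendritic cell markers compared, 2 were counted lower: Itgax (16.5 and 1.88 FPKM, held) and Batf3 (8.31 and 2.56 FPKM, not held). Bst2 was the 1 counted higher (25.4 and 64.3 FPKM, held). Clec9a and Cd209a were assembled in the unstimulated library only, at 7.42 and 2.68 FPKM, and Ccr9 with anti-IgM only, at 1.95 FPKM. Plasma cell markers had 1 of 5 counted lower, and none of 3 NK cell and none of 3 platelet markers were counted. No neutrophil marker was compared; Csf3r was the 1 of 10 listed that was assembled in either library, at 3.50 FPKM in the unstimulated one. Lysosomal genes, with 8 of 33 counted lower and 2 higher (5 and 2 held), included Psap at 421 and 159 FPKM and Tfeb, the factor of lysosome biogenesis, at 52.3 and 14.3 FPKM, while Cd63 was at 4.59 and 23.4 FPKM.

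**Figure D3:**
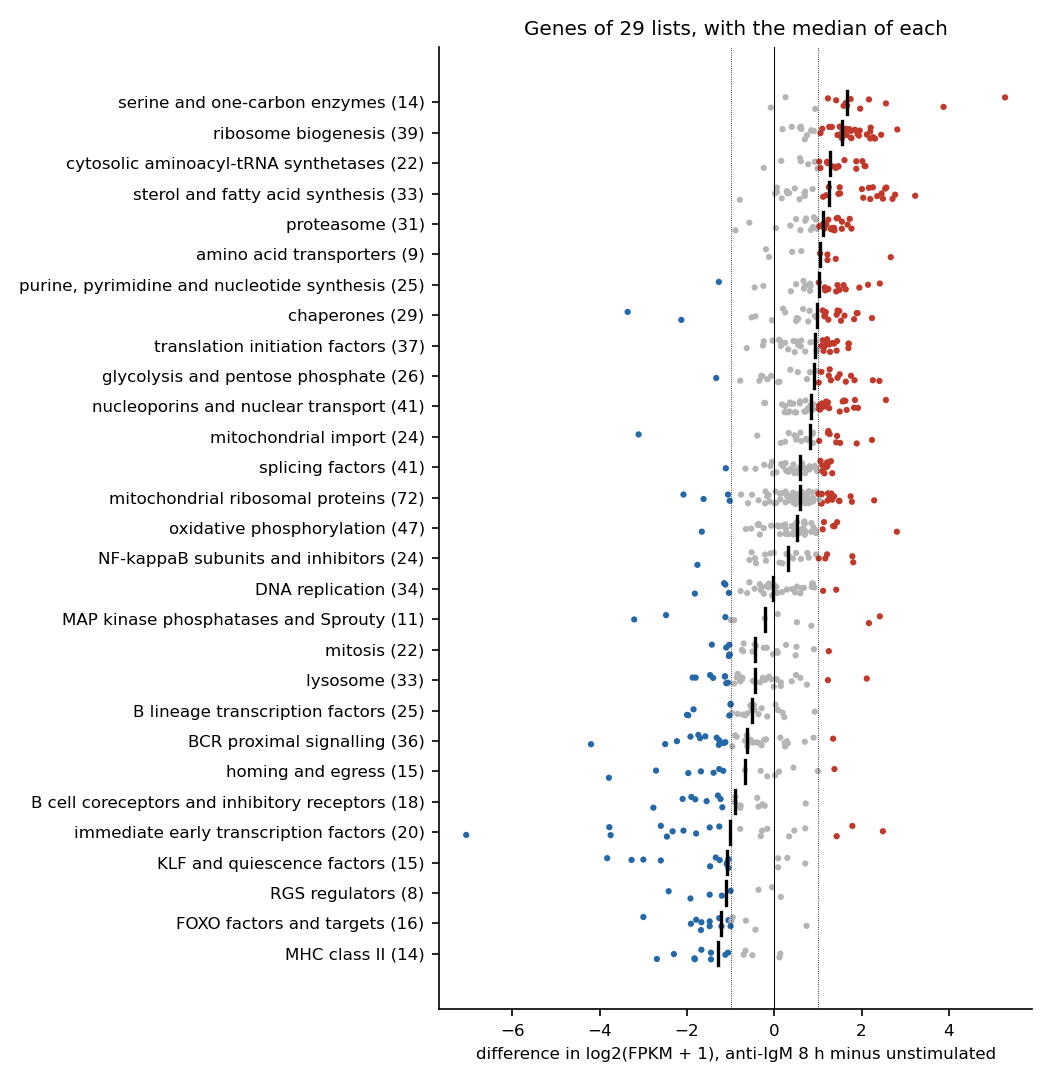
Differences in log2(FPKM + 1), anti-IgM 8 h minus unstimulated (x axis), for the genes of 29 lists (rows, number compared in brackets); each point is 1 gene, red where counted higher, blue where counted lower and grey otherwise, and the black bar is the list's median. The medians run from 1.66 for serine and one-carbon enzymes to -1.29 for MHC class II, beside 0.05 over all genes compared.

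Surface proteins of activation split in 2 directions. Of 17 compared, 6 were counted higher and 6 lower. Cd83, which stabilises class II and CD86 at the surface, measured 130.2 FPKM at 0 h and 422 after anti-IgM, Cd86, the costimulatory ligand for CD28, at 18.9 and 45.6, and the transferrin receptor Tfrc at 22.1 and 69.5 FPKM. Icosl, the ligand for ICOS, was lower (117 and 25.4 FPKM, -2.16), and so was the early activation marker Cd69 (84.3 and 40.04 FPKM), which was between 8.60 and 38.4 FPKM in the other 5 libraries. Il2ra, the α chain of the IL-2 receptor, was at 6.73 and 43.2 FPKM (2.52), and Stat5a, which acts downstream of it, at 12.4 and 55.2 (2.06). Il2rg, the shared γ chain, was at 80.9 and 111 FPKM and Il2rb at 1.16 and 0.973. The cytokine receptors Il10ra (59.8 and 17.9 FPKM), Ifngr1 (44.4 and 17.3) and Il4ra (54.97 and 24.5) were counted lower, as was Socs3, an inhibitor of cytokine signals (17.1 and 1.47 FPKM). Of 14 SOCS and STAT genes 1 was counted higher, Stat5a, and 1 lower, Socs3. That is 7.14% each way, below the 10.8% and 10.6% of all genes compared. Ifnar2 was counted lower in a joined transcript and did not hold (-0.29 over exons). Of the secreted factors Ccl4 (36.9 and 79.8 FPKM) and Ccl22 (1.78 and 11.99) were counted higher, and Ltb (236 and 61.7) and Lta (19.3 and 4.76) lower; Ltb was at 396 FPKM with BAFF at 8 h and 115 FPKM with both agents. Il6 and Il10 were assembled with anti-IgM only, at 0.709 and 1.23 FPKM.

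Myc, a central factor of cell growth, was at 143 FPKM at 0 h and 263 after anti-IgM (0.88), just under the 2-fold rule, and 1.30 over exons; it was at 64.7 FPKM with BAFF at 8 h and 264 with both. Its dimer partner Max was at 50.9 and 47.3 FPKM, and the antagonist Mxd4 was counted lower (34.8 and 13.7 FPKM). Of 39 ribosome biogenesis genes 29 were counted higher, all held, none lower, and all 39 differences were above 0 (median 1.55). Nop16 was at 15.02 and 112 FPKM (2.82), Nhp2, of the H/ACA snoRNP, at 31.8 and 178 (2.45), Utp20 at 6.40 and 35.8 and Heatr1, which recruits RNA polymerase I, at 15.2 and 77.2. Npm1, the nucleolar chaperone nucleophosmin, was the most abundant member counted (496 and 1519 FPKM), and Ncl, nucleolin, was at 74.4 and 254. Polr1b, a core subunit of RNA polymerase I, was at 7.97 and 40.7 FPKM, whereas Polr1c, which RNA polymerase III shares, was at 30.5 and 35.02. The ribosomal proteins themselves had a median of -0.09 over 73 genes. In that list 1 gene was counted higher (Rps2) and 8 lower, of which only 1 lower gene held; Rps2, Rps25, Rpl7a and Rpl36 were among those whose transcripts were assembled differently, and these genes have many near-identical processed copies. Genes that host snoRNAs were counted higher in 5 of 11, all held: Snhg3 was at 25.1 and 79.4 FPKM and Snhg12 at 58.7 and 139.8.

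The enzymes that charge transfer RNA of the cytosol were mostly higher: 15 of 22 were counted higher, all held, and none lower (median 1.27). Tars stood at 14.3 FPKM without stimulus and 64.1 with it, Yars at 11.8 and 52.5, Iars, whose promoter is printed above, at 17.7 and 74.7, and Eprs at 22.4 and 85.1 FPKM. Vars was the 1 member below 0 (184 and 156 FPKM, -0.24). Of 37 translation initiation factors 16 were counted higher (15 held) and none lower. Eif4a1, the helicase that unwinds the message, was at 98.02 and 321 FPKM in a transcript joined with Cd68 (1.68 over exons), while its paralogue Eif4a2 was at 332 and 214 (-0.63). Eif4g1, the scaffold, was at 60.8 and 167 FPKM and Eif4e, the cap-binding protein, at 26.4 and 58.96. In the eIF3 complex Eif3b (47.2 and 156 FPKM), Eif3c (65.8 and 154) and Eif3g (83.3 and 201) were counted higher, while Eif3e, Eif3f, Eif3h and Eif3k lay between -0.26 and 0.17. Amino acid transporters had 5 of 9 counted higher, led by Slc7a5, the light chain of the leucine carrier, at 9.25 and 64.1 FPKM (2.67), with its heavy chain Slc3a2 at 39.4 and 82.5.

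A second set of amino acid genes was assembled with anti-IgM but not in the unstimulated library. Asns (asparagine synthetase) was at 8.94 FPKM, Trib3 at 7.59, Chac1 at 3.79 and the cystine carrier Slc7a11 at 5.76 FPKM, and no piece was assembled over their exons at 0 h. These are known targets of ATF4, and Atf4 mRNA itself was at 179.8 and 217 FPKM (0.27). Of the 6 ATF4 stress response genes assembled in both libraries none was counted higher and 1, Ppp1r15a, lower, with a median of 0.09. Slc1a4, Slc7a3 and Slc6a9 behaved alike, at 6.77, 2.51 and 3.16 FPKM. An assembled piece rested on at least 10 fragments, so a gene that was not assembled may still have had a few. Asns was at 11.01 FPKM and Trib3 at 4.33 FPKM with BAFF at 8 h. Ahr, the aryl hydrocarbon receptor, was at 4.01 FPKM unstimulated, 30.9 with anti-IgM, 31.9 with both agents and 5.95 with BAFF at 8 h. Its targets Cyp1a1, Ahrr and Nqo1 were assembled with anti-IgM at 2.19, 5.23 and 7.04 FPKM and not at 0 h, and Tiparp was at 15.6 and 33.1 FPKM. With BAFF alone at 8 h Cyp1a1, Ahrr and Nqo1 were at 1.08, 9.38 and 5.635 FPKM and Tiparp at 19.9 FPKM. Ahrr was thus higher with BAFF, where Ahr was low, and its value over exons with anti-IgM was only 0.621. Vegfa was assembled with anti-IgM only, at 31.4 FPKM, while the hypoxia genes Hif1a, Pdk1 and Bnip3 were at 29.3 and 29.4, 11.1 and 5.17, and 7.44 and 8.10 FPKM. In all, 600 genes were assembled with anti-IgM only, 144 of them at 5 FPKM or more, and 761 in the unstimulated library only, 232 of them at 5 FPKM or more. Some of the highest of these had similar reads over exons in both libraries. Lsp1, an actin-binding protein of leukocytes, was listed with anti-IgM only (342 FPKM) but was at 228 over exons unstimulated and 198 with anti-IgM. Tpm3, a tropomyosin, was listed likewise (253 FPKM, 162 and 192 over exons).

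Enzymes that move single carbon units had the highest median of any list, 1.66, with 11 of 14 counted higher (10 held) and none lower. Shmt2, the mitochondrial serine hydroxymethyltransferase, measured 24.7 FPKM at 0 h and 151 after anti-IgM (2.56). Mthfd2, its partner in the mitochondrion, was at 9.86 and 41.4, and the serine synthesis genes Phgdh and Psat1 were at 37.7 and 115 and at 9.67 and 46.9 FPKM. Shmt1, the cytosolic enzyme, had the largest difference of the genes counted higher at 5 FPKM or more (1.26 and 87.5 FPKM, 5.29), but reads over its exons differed by 2.01 (3.18 and 15.9). Tyms, thymidylate synthase, was counted higher by 3.88 and did not hold (-0.30 over exons). The folate carrier Slc19a1 was at 4.78 and 46.95 FPKM (3.05). Nucleotide synthesis had 13 of 25 genes counted higher and 1 lower, all held: Uck2, which salvages uridine, was at 3.83 and 24.8 FPKM, Ctps, which makes CTP, at 8.48 and 41.02, Aprt at 34.3 and 136, and Dck, the deoxycytidine kinase, was the lower one (21.01 and 8.10 FPKM). In the polyamine pathway the synthetic enzymes Odc1 (40.8 and 250 FPKM), Srm (19.2 and 85.1) and Amd1 (21.6 and 53.7) were the 3 of 10 counted, all higher, and Sat1, which degrades polyamines, was at 213 and 155.

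Sterol and fatty acid genes had 19 of 33 counted higher (18 held) and none lower. Along the pathway, Hmgcs1 was at 20.7 FPKM at 0 h and 128 after anti-IgM, Idi1 at 14.3 and 142, Fdps at 21.2 and 113, and Sqle at 9.63 and 57.6 FPKM. Their regulators Srebf2 and Srebf1 were at 88.9 and 133 and at 18.01 and 22.4 FPKM, and neither was counted. Of the fatty acid branch Fasn (13.02 and 61.95 FPKM) and Acaca (5.36 and 40.6) were counted higher, while the desaturases Scd1 (235 and 135) and Scd2 (20.2 and 20.5) and the elongase Elovl6 (4.45 and 4.70) were not. BAFF alone at 8 h also gave high values, with Idi1 at 78.4 and Hmgcs1 at 87.2 FPKM.

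Of 26 glycolysis and pentose phosphate genes 12 were counted higher (11 held) and 1 lower. Pfkp, a phosphofructokinase, was at 15.8 and 79.6 FPKM, Gapdh at 288 and 787, Ldha at 111 and 402 and the lactate carrier Slc16a1 at 4.14 and 26.4. The glucose carriers differed from these: Slc2a1 was at 20.1 and 19.1 FPKM and Slc2a3 was the 1 counted lower (14.8 and 5.28). Oxidative phosphorylation had 6 of 47 counted higher and 1 lower, 12.8% and 2.13%, near the background for higher genes; its median was 0.52. Of 72 mitochondrial ribosomal proteins 18 were counted higher (17 held) and 4 lower (1 held). Mitochondrial import had 9 of 24 counted higher (8 held) and 1 lower (not held), with the chaperones Hspd1 (70 and 335 FPKM) and Hspa9 (59.97 and 225) and the outer membrane subunit Tomm5 (44.3 and 128).

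Protein quality genes were higher in both folding and degradation. The proteasome had 18 of 31 counted higher, all held, and none lower (median 1.12), in the core as well as the cap: Psma7 was at 88.4 and 262 FPKM, Psmd1 at 22.2 and 78.3, and Psmd7 at 26.3 and 89.5. Psmb8, which replaces a core subunit in the immunoproteasome, was instead counted lower without holding (181 and 85.8 FPKM, -0.70 over exons). Of 29 chaperones 14 were counted higher and 2 lower, all 16 held. Hsp90ab1 was at 613 and 1771 FPKM, Hspa8 at 679 and 1835, and the chaperonin subunits Cct3 at 71.4 and 257 and Cct6a at 54.8 and 208; Hspa5, the chaperone of the endoplasmic reticulum, was at 216 and 258. Nuclear transport had 18 of 41 counted higher (17 held) and none lower, with the GTPase Ran at 78.1 and 239 FPKM, its exchange factor Rcc1 at 11.4 and 43.8, Ranbp1 at 55.5 and 200, and the importin Ipo5 at 24.4 and 94.99. Splicing factors had 10 of 41 counted higher and 1 lower, 7 and 0 of them held.

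Cell cycle genes went both ways. Of 16 G1 cyclins and kinases 3 were counted higher (2 held) and 5 lower (3 held). Cdk4 stood at 57.95 FPKM without stimulus and 208 with it (1.83) and its partner Ccnd2 at 18.1 and 42.9 (1.20). Ccnd1 was lower (11.1 and 1.88 FPKM), as were E2f2 (24.3 and 2.86) and the retinoblastoma relative Rbl2 (27.4 and 11.97). Ccnd3 was not assembled on its strand with anti-IgM; reads over its exons were 24.6 unstimulated and 4.20. Of 34 replication genes 2 were counted higher, Pcna (78.2 and 171 FPKM) and Pold2 (17 and 47.04), and 4 lower, 1 of which held, with a median of -0.02. Rrm2, the ribonucleotide reductase subunit of S phase, was the one that held, at 7.29 FPKM unstimulated, 2.82 with anti-IgM at 8 h and 57.1 with anti-IgM at 30 h. Mitosis genes had a median of -0.44 and 6 of 22 were counted lower, of which 1 held, Ndc80 (7.54 and 2.999 FPKM; 19.1 with anti-IgM at 30 h). At 8 h, then, Cdk4 and Ccnd2 were higher while most S and M phase genes were not. Clustered histone genes had 5 of 12 counted lower, all held, led by Hist1h1c (96.7 and 3.17 FPKM), and poly-dT priming recovers little of these mostly unpolyadenylated transcripts.

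Interferon-stimulated genes were counted higher in 6 of 27 (4 held) and lower in 1. Isg15 was at 11.2 FPKM unstimulated, 45.2 with anti-IgM, 49.4 with both agents and 11.8 with BAFF at 8 h, Oasl1 was at 5.97 and 21.2, and Samhd1, which lowers deoxynucleotide pools, was the lower one (152 and 66). The widely used members Mx1 (6.09 and 7.78 FPKM), Rsad2 (3.82 and 3.70) and Irf7 (36.2 and 35.2) were not counted. Of 16 chromatin enzymes 2 were counted higher: Kdm6b, a histone H3 lysine demethylase, at 9.63 and 38.6 FPKM, and Dnmt3a, which did not hold (0.33 over exons).

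**Figure D4:**
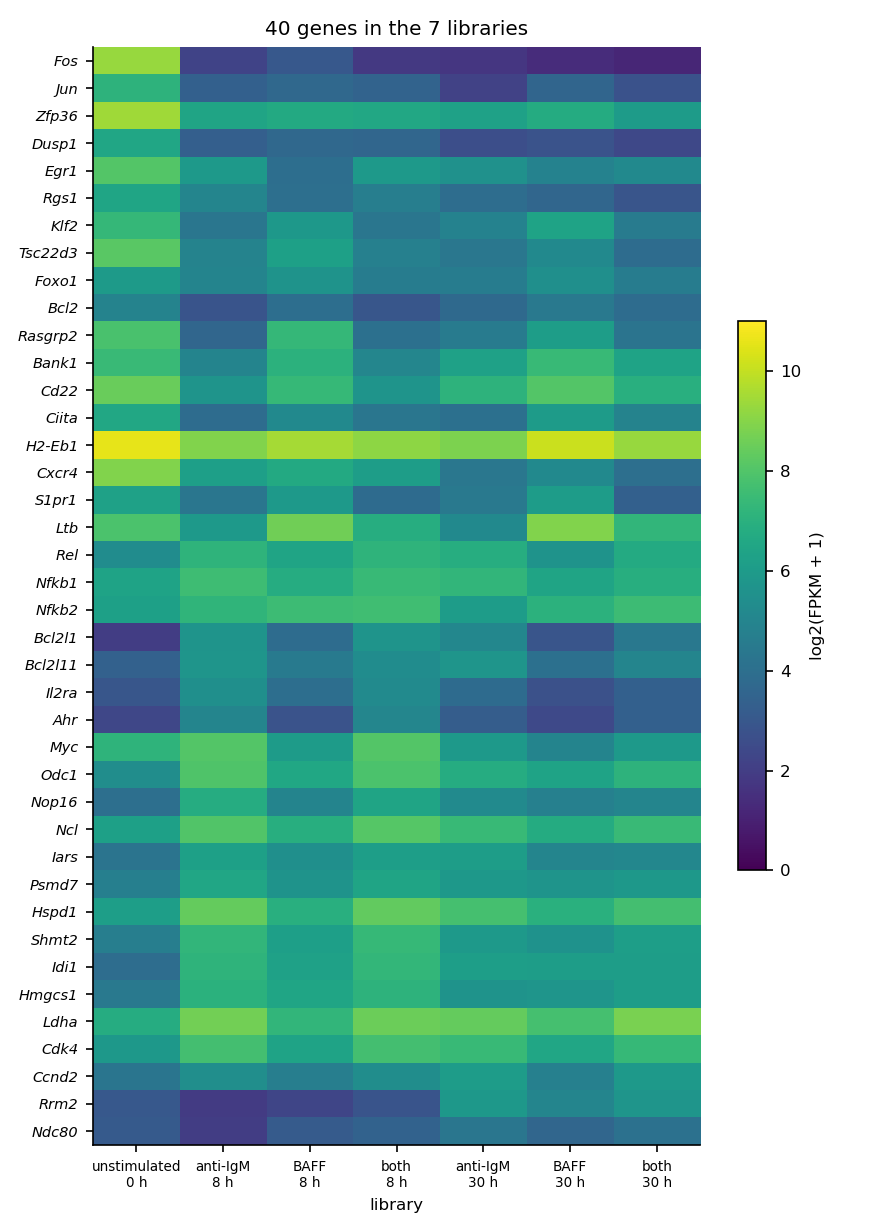
Log2(FPKM + 1) (colour scale) of 40 genes named here (rows) in the 7 libraries (columns, 1 library each). Fos was at 627 FPKM in the unstimulated library and at most 7.22 FPKM in the other 6, and Bcl2l1, Il2ra and Ahr were at their highest with anti-IgM or both agents at 8 h.

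Set beside the other libraries, the values of named genes were as follows. Rel was at 140 FPKM with anti-IgM and 143 with both, Odc1 at 250 and 237, Ciita at 13.8 and 18.9, and Rasgrp2 at 11.3 and 15.4. With BAFF alone at 8 h the same 4 genes were at 85.6, 93.8, 35.8 and 158 FPKM, and each lay between its 0 h and its anti-IgM value. Ltb did not: with BAFF at 8 h it was at 396 FPKM, above both. After 30 h of anti-IgM, Odc1 (110.3 FPKM), Nop16 (37.5) and Slc7a5 (21.8) lay between the 0 h and the 8 h value. Myc lay below both at 61.2 FPKM, and Eif4a1 and the cyclin Ccnd2 lay above both at 357 and 66.2 FPKM. All these values share the single unstimulated library as their reference, so they are set side by side and no agreement between stimuli is computed.

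Of the 15 largest differences in each direction at 5 FPKM or more, several were not in any list. Higher were Mreg (9.56 and 95.9 FPKM), Mettl1, a tRNA methyltransferase (6.23 and 64.3), Ppa1, the inorganic pyrophosphatase (11.1 and 89.4), Amigo2 (3.56 and 34.05), Grasp (2.21 and 23.03), St6galnac4 (2.92 and 51.97) and Zfp948 (1.24 and 45.5), all held. Zfp948 and St6galnac4 lay in joined transcripts, and over exons they differed by 1.76 and 2.16. Lower were Abcg3 (40.96 and 1.01 FPKM), Fcgrt, the neonatal Fc receptor (21.96 and 0.651), and Cd55, which shields cells from complement (467 and 33.5, -2.42 over exons in a joined transcript). Tnnt3 (344 and 2.18 FPKM) and Nup210l (246 and 1.48) were among the largest lower genes, but they lay in transcripts joined with Lsp1 and Tpm3, and reads over exons differed by -0.20 and 0.09.

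**Figure D5:**
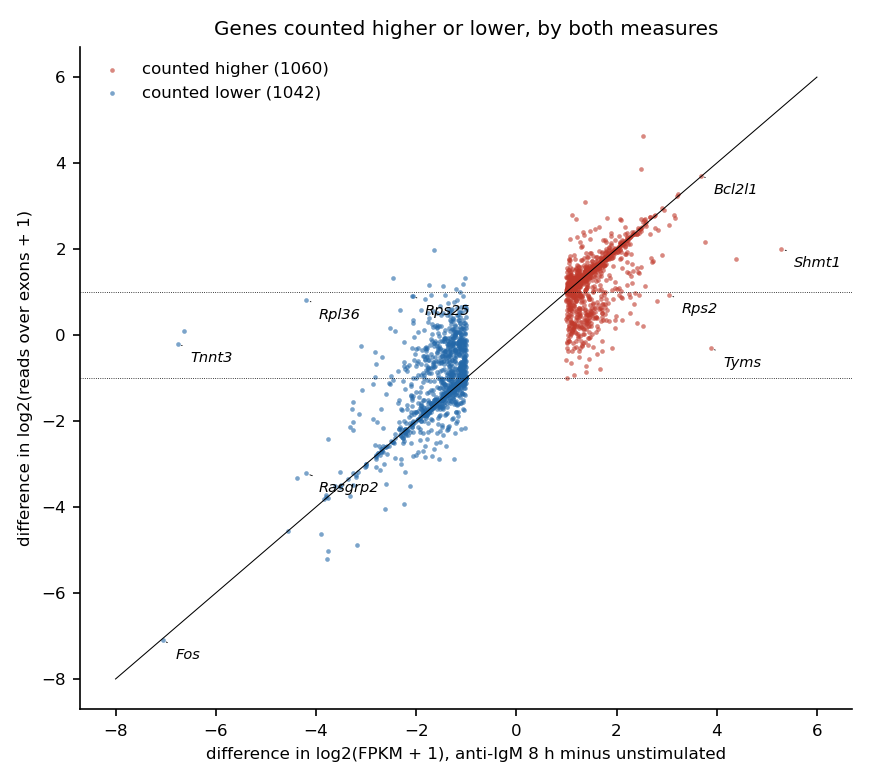
Difference in log2(FPKM + 1) (x axis) against the difference in log2(reads over exons + 1) (y axis) for the 1060 genes counted higher (red) and the 1042 counted lower (blue), with the line of equal differences and dotted lines at 1 and -1. Genes such as Fos and Bcl2l1 lie on the line, while Tyms, Rps2, Rpl36 and Tnnt3 have large differences in FPKM and under 1 in reads over exons.

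Reads inside introns were looked at because they come mostly from unspliced RNA. Pieces that lay wholly in introns were assembled in both libraries for 533 of the compared genes. In the 38 of these counted higher the median intron difference was 0.89 and 27 lay above 0. In the 50 counted lower it was -0.54 and 32 lay below 0, and in the 445 not counted it was -0.10. More genes had such pieces in 1 library only. Of those counted higher, 47 had them in the unstimulated library only and 55 with anti-IgM only, the deeper library. These numbers were 69 and 41 for genes counted lower, and 413 and 445 for genes not counted. Across these 533 genes, which share both libraries and their depths, Spearman's rho between the intron and the FPKM difference was 0.19 and Pearson's r 0.17, a weak relation that is given as a description. Of the genes named above, 3 had an intron difference the same way as their FPKM: Il10ra (-2.46), Btk (-1.39) and Aen (0.99). The other 4 with intron pieces in both libraries went the opposite way: Cd55 (3.97), Mcl1 (1.29), Psat1 (-0.53) and Bcl11a (0.19).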

How the data were processed

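RNA of C57BL/6 B cells was reverse transcribed from poly-dT primers and sequenced as Illumina TruSeq libraries, per the labels' protocols. The submitters' processing notes name CASAVA 1.8.2, TopHat2 2.0.5, Bowtie2 2.0.0.7, Cufflinks 2.0.2, Cuffdiff and mm10. The authors deposited, for each library, assembled transcripts with FPKM and its interval, per the file contents; the labels do not state how short or repeated pieces were treated. Pieces under 300 bases held 67.66% of summed FPKM unstimulated and 71.08% with anti-IgM, and were left out.

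Transcripts took the gene name of the merged annotation whose exons they overlapped on the same strand, and FPKM was summed per gene. Assembly strand follows splice sites, so unspliced antisense reads cannot be told apart. A gene was counted when assembled in both libraries, with at least 1 FPKM in one, a log2(FPKM + 1) difference of at least 1 and intervals of 2 SDs that did not overlap. No test was run, since each condition has 1 library. The calculation was run on simulated counts with counting error only. These held no spread between libraries and no assembly differences, so they check the arithmetic and not the genes counted. Mapped fragments were recovered from the interval widths. Alternatives changed the pseudocount, filters, threshold, scaling, transcript choice and treatment of neighbouring genes.

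The gene lists and members were chosen with earlier results of these data known. Genes were drawn from a set fixed by rule. It held the 15 largest differences each way at 5 FPKM or more, with predicted genes and receptor segments left out. It also held up to 4 counted members of each list, the 8 highest genes of 1 library only, and fixed key genes. Not every gene of that set is named above. Left out were, for example, Atp5g2 (58.2 and 415 FPKM, higher, not held) and Jund (98.3 and 27.6 FPKM, lower). Ppia, assembled with anti-IgM only (2876 FPKM), was left out too. Further list members were added by role after their values were seen. Promoters are RefSeq sequences of GRCm38.p6. The scripts ran in Python 3.11.15 with pandas 2.3.3 for tables, numpy 2.4.6 for arithmetic and matplotlib 3.10.9 for plots.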

Additional observations from a re-analysis of the deposited data

How the results depend on the processing

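The number of genes counted higher, 1060, was 2216 at a 1.5-fold threshold, 129 at 4-fold and 629 without genes that have another assembled gene within 1000 bases, where fewer genes were compared. The number counted lower, 1042, was 1965 at 1.5-fold, 181 at 4-fold, 581 with a pseudocount of 5 and 1766 with genes of 1 library counted against 0. Under the other alternatives both counts stayed within 1.5 times the reported ones. Without joined transcripts, an alternative chosen after seeing the data, they were 999 and 968. Which genes were counted changed more than the totals. With the most abundant transcript only, 834 of the 1060 higher genes and 699 of the 1042 lower genes were counted again. With transcripts of at least 1000 bases, where fewer genes were compared, these were 804 and 705. Some genes had the opposite sign in reads over exons, at -0.30 for Tyms, 0.09 for Nup210l, 0.82 for Rpl36, 0.53 for Tnfsf9, 1.14 for Psme2, 0.54 for Pole, -0.38 for Plk1, 0.91 for Rps25, 0.84 for Rpl7a and 0.57 for Ndufs7. With the most abundant transcript only, Pole was at 0.04 and Cenpf at 0.17, and with transcripts of any length Tyms was at -2.93. The cause was not tested. No paired analysis was possible because each condition has 1 library, and no replicate could be left out. Genes under 5 FPKM, and those near the 10 fragments of the smallest assembled pieces, are the least precise.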
